A study of Homo sapiens with 9 samples.

Results

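Hypoxic Hep3B cells that received only DMSO were sequenced in both sets of the series, and these 4 of its 9 libraries are described here. They were chosen by their titles: DMSO replicates 1, 2 and 3 of a replicated set, and the one DMSO library of a dose set, called the single library below. Hep3B is an established human liver cancer line, DMSO is the solvent control, and per the series' design all cells were kept under hypoxia, with a treatment of 6 h, before polyA RNA was sequenced. The other 5 libraries came from the same line under hypoxia with a compound labelled DHE, 3 as replicates and 1 each at doses labelled high and low. The labels give no oxygen level, concentration, passage, date or sequencing batch for either set, so the set cannot be told apart from any of these. Whether the 3 replicates are separate cultures is not stated, and each p-value therefore reflects only how far these samples spread, a spread that may be technical.

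When oxygen is low, the hydroxylases that mark the alpha subunits of the hypoxia-inducible factor (HIF) for destruction slow down, the subunits accumulate, and the factor binds short response elements beside genes of glycolysis, pH control, blood vessel growth and red cell formation. Hep3B is known as a line that makes erythropoietin in hypoxia. It keeps part of the hepatocyte programme, such as albumin and apolipoproteins, together with genes of the fetal liver, such as alpha-fetoprotein.

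Library totals were 33563434 to 36267227 counts in the replicates and 26956168 in the single library, and 16415 to 17117 genes had a count in a replicate and 16899 in the single library. The 10 most counted genes took 7.06% to 7.90% of the counts in the replicates and 11.3% in the single library, where the most counted gene was ALB. Ribosomal RNA took 1.15% to 2.18% of the counts in the replicates and 1.92% in the single library. The difference between a transcript's length and the effective length in the tables, which grows with the mean fragment length, was 291.6 to 324.6 bases in the replicates and 262.0 bases in the single library. It was 263.5 and 262.0 bases in the DHE libraries of the dose set and 289.7 to 325.6 bases in the DHE replicates, so it moved with the set, and its part in the differences below was not tested. By length of transcript the median log2 difference of the single library was 0.05 in the shortest of 3 equal classes of genes, -0.03 in the middle class and -0.07 in the longest.

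Hepatocyte and hepatoma markers were present in each of the 4 libraries. APOA1, the main protein of high-density lipoprotein, measured 295, 257 and 276 CPM (counts scaled to a fixed library size by trimmed means of M-values, TMM) in replicates 1 to 3 and 1758 CPM in the single library. Markers of other cell types were also measured. The sum over 12 cholangiocyte markers, 11 of which passed the filter on low counts, was 1263 to 1308 TPM (a level scaled for transcript length) in the replicates and 1568 TPM in the single library. Of 14 leukocyte markers 6 passed, and HLA-DRA, MS4A1, NKG7, TYROBP and CD163 had no count in any of the 4 libraries. The summed level of that list was 169 to 179 TPM in the replicates and 192 TPM in the single library. Of 12 endothelial markers 4 passed, KDR and TEK had no count, and the sum was 27.8 to 31.7 TPM against 10.3 TPM. Of 13 fibroblast and stellate cell markers 8 passed, DCN and ACTA2 had no count, and the sum was 40.1 to 46.1 TPM against 27.8 TPM. The markers that passed lay on both sides of the replicates. The single library was above all 3 replicates for 2 and below them for 4 of the 6 leukocyte markers. These counts were 2 and 2 of the 4 endothelial markers and 3 and 3 of the 8 fibroblast and stellate markers. Over all genes tested the shares were 40.9% above and 42.0% below. The part of such markers in the differences below was not tested.

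The single library held more mRNA of sterol and fatty acid synthesis, plasma proteins and the fetal liver than the replicates, and less of COL4A3, IRF8, SUCNR1 and several interferon response genes. DLK1, a hepatoblast gene, was 28.4-fold higher, AFP 14.7-fold, FASN, the fatty acid synthase, 7.16-fold and EPO 5.82-fold, while the HIF1A transcript did not pass the test. These differences sat within a shift across much of the transcriptome. Of 15251 genes tested with edgeR's quasi-likelihood test 7396 (48.5%) passed an adjusted p of 0.05, 3773 (24.7%) higher and 3623 (23.8%) lower in the single library, and "called" below means past that threshold. At least 2-fold calls numbered 2045 (13.4%), 1037 (6.80%) higher and 1008 (6.61%) lower. At least 8-fold calls numbered 173 higher and 224 lower. The calls of each list below are to be read beside the shares of all genes, 24.7% higher and 23.8% lower. The single library lay above all 3 replicates for 40.9% of the genes and below all 3 for 42.0%. With 1 library on one side the test takes its spread from the replicates and assumes that the single library varies like them. An exact one-sided permutation test of 1 library against 3 cannot give a p below 0.25 for a single gene, so the calls rest on that assumption. In bulk RNA, fewer cells of a type and less RNA per cell cannot be told apart.

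Most of these differences were small. The median absolute log2 difference over all genes tested was 0.41 (1.33-fold), while each replicate against the mean of the other 2 gave 0.09 to 0.11. Pearson's r of log2 CPM across the 15251 genes, which are not independent replicates, was 0.984 to 0.987 between replicates and 0.937 to 0.943 between the single library and a replicate. Scaling by library totals alone moved the median of all genes from -0.02 to -0.22, and limma on log2(TPM + 1) moved it to -0.14. The higher share of the calls, 51.0% with TMM, then became 30.9% and 34.5%, so small differences on the log2 scale depend on the scaling.

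**Figure D1:**
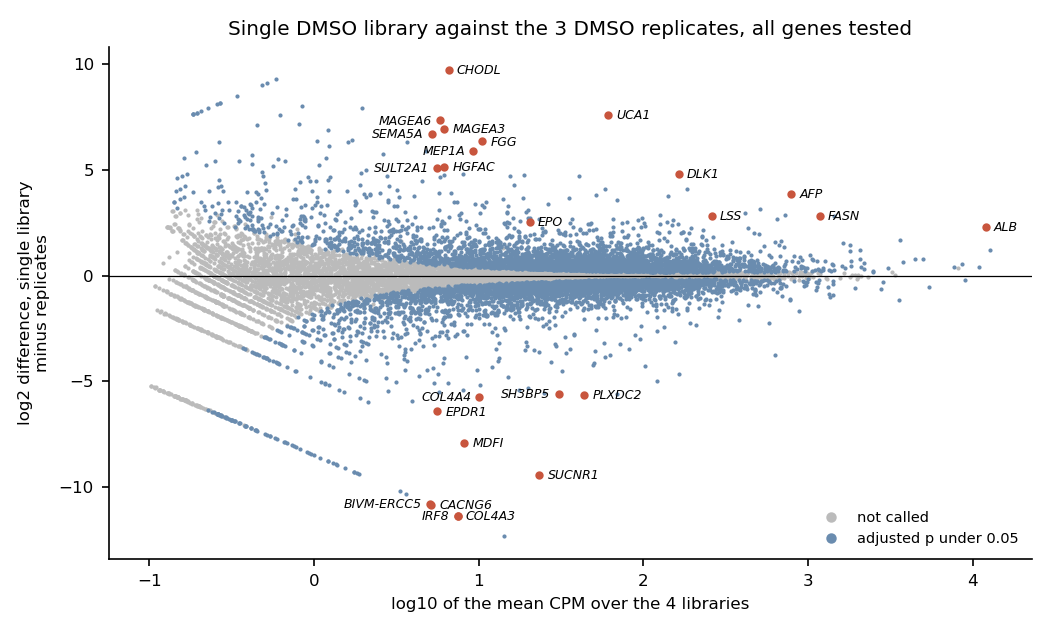
Log2 difference of the single DMSO library from the 3 DMSO replicates (vertical axis) against the log10 of the mean CPM over the 4 libraries (horizontal axis) for the 15251 genes tested. Blue points passed the adjusted p of 0.05 (7396 genes), grey points did not, and red points carry names. The lines of points at low CPM are genes with 0 or a few counts on one side, whose fitted differences are not bounds.

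As a baseline, the 3 replicates gave the following levels in TPM, as mean ± SD with n = 3. ALB, the main protein of blood plasma, was at 5169 ± 64.5, and LDHA, which makes lactate from pyruvate, at 1767 ± 51.1. PGK1, an ATP-forming enzyme of glycolysis, was at 911 ± 66.03. Next came NDRG1, a stress gene induced by hypoxia, at 759 ± 21.6, and CA9, a carbonic anhydrase on the cell surface that exports acid, at 661 ± 55.9. The ranges of these last 3 genes over the replicates did not overlap. GPC3, a cell-surface proteoglycan of hepatoma cells, was at 385 ± 16.5 and VEGFA, the growth factor that drives blood vessel sprouting, at 359 ± 33.8, with overlapping ranges. BNIP3, a mitophagy receptor, was at 218 ± 4.74. AFP, the fetal counterpart of albumin, at 171 ± 6.56 and ADM, the vasodilator adrenomedullin, at 169 ± 6.79 also overlapped. Lower in the order were EPAS1, the HIF-2 alpha gene, at 146 ± 8.56, the hepatocyte regulator HNF4A at 95.6 ± 6.93, the glucose transporter SLC2A1 at 72.9 ± 6.68, HIF1A at 52.6 ± 1.54, the pyruvate dehydrogenase kinase PDK1 at 31.1 ± 1.75 and EPO at 15.1 ± 2.22.

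Ribosomal protein genes made up 9 of the 15 genes of highest mean TPM. APOA2, an apolipoprotein, read 16397, 13323 and 12673 TPM in the replicates and 21984 TPM in the single library, GAPDH 13247, 14494 and 14738 TPM against 10804 TPM, and MIF, a cytokine, 5834, 5384 and 5158 TPM against 8247 TPM. Of the ribosomal protein genes, RPS27, RPS28, RPS18, RPL41 and RPS16 went opposite ways on the 2 scales, RPS27 with 20166, 15996 and 15540.1 TPM against 10569 TPM but 562, 443 and 577 CPM against 629 CPM, so no direction is given for them.

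In the single library AFP moved furthest in the order of the 16 genes first described. It read 2233 TPM there, above LDHA at 1513. CA9 at 1063 TPM lay above NDRG1 at 981 and PGK1 at 1039.9. EPO read 76.6 TPM, above HIF1A at 44.5 and close to SLC2A1 at 88.2. EPAS1 fell from above HNF4A to 90.1 TPM, beside HNF4A at 94.5.

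**Figure D2:**
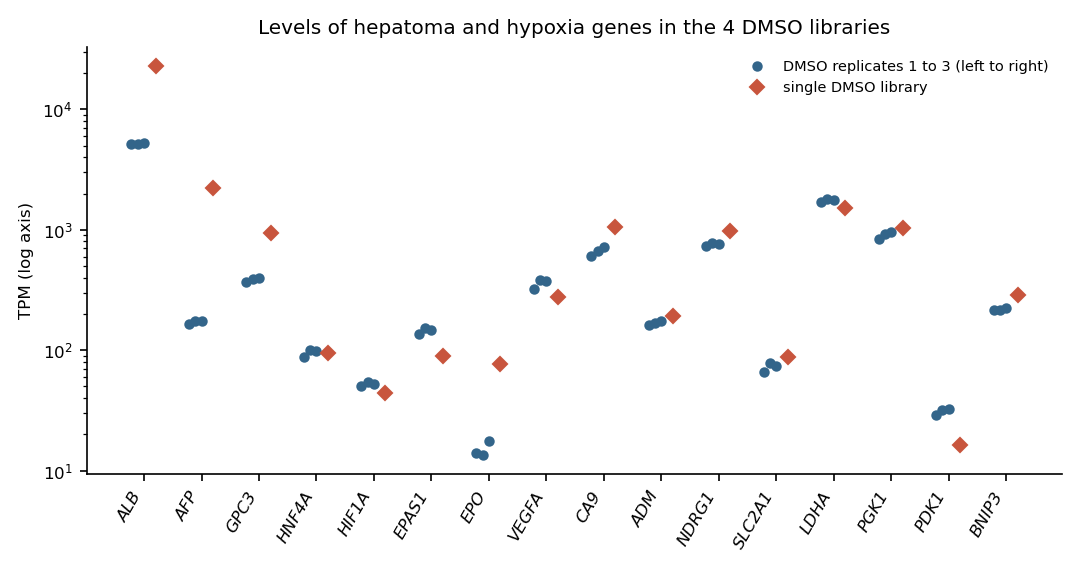
TPM on a log axis of 16 genes of hepatoma and hypoxia in the 4 DMSO libraries, with replicates 1 to 3 as circles from left to right and the single library as a diamond. The diamonds of ALB, AFP, GPC3 and EPO lie furthest above the circles, those of EPAS1, PDK1, HIF1A and LDHA are among the diamonds below them, and that of HNF4A lies within them.

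Among the parts of the HIF pathway itself, the HIF1A transcript did not pass the test, though the single library lay slightly below all 3 replicates. It measured 122, 117 and 115 CPM in the replicates and 111 CPM in the single library, a log2 difference of -0.09 ± 0.07 (SE, edgeR adjusted p = 0.317). EPAS1 was at 428, 433 and 418 CPM and at 291 CPM in the single library, which lay below all 3 replicates (-0.55 ± 0.07, edgeR adjusted p = 6.07e-06). HIF3A, a HIF alpha paralogue with inhibitory forms, fell further, from 17.9, 19.03 and 16.1 CPM to 6.34 CPM (-1.48). The oxygen-sensing hydroxylase EGLN1 rose, from 203, 194 and 204 CPM to 477 CPM (1.25), and so did CITED2, which competes with HIF for coactivators, from 117, 114 and 122 CPM to 275 CPM (1.22). EGLN3, a related hydroxylase, gave 28.1, 24.2 and 29.4 CPM against 30.6 CPM and did not pass (edgeR adjusted p = 0.28). VHL, which recognises hydroxylated HIF, fell (-0.38), as did CUL2, the scaffold of its ubiquitin ligase (-0.62). Of 16 tested components 4 rose and 5 fell (25.0% and 31.2%, near the 24.7% and 23.8% of all genes), or 3 and 8 with library totals alone, with a median of -0.01 beside -0.02 over all genes. The 2 sides of this list did not separate by role, since the adaptors ELOB (0.65) and ELOC (-0.25) of the same ligase were called in opposite directions.

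HIF targets outside glycolysis moved in both directions, more of them upward. Of 45 tested 22 rose and 10 fell (48.9% and 22.2%, beside 24.7% and 23.8% of all genes), with a median log2 difference of 0.32, and 5 rose and 3 fell by at least 2-fold. On the TPM scale 18 rose and 12 fell with a median of 0.11, beside -0.14 for all genes. EPO, the hormone of red cell formation, measured 9.12, 7.99 and 10.6 CPM in the replicates and 53.8 CPM in the single library, 5.82-fold higher (2.54 ± 0.13, edgeR adjusted p = 1.13e-10). IGFBP1 and IGFBP3, carriers of insulin-like growth factors, rose from 60.7, 58.7 and 61.4 CPM to 323 CPM and from 21.4, 21.5 and 23.7 CPM to 125 CPM. For each of these 3 genes the replicates lay close together and the single library far above them. VEGFA went the other way, with 656, 705 and 702 CPM in the replicates and 591 CPM in the single library (-0.22, edgeR adjusted p = 0.0175), and that call was lost without replicate 3. ADM was at 132, 124 and 132 CPM and at 167 CPM in the single library (0.37), a call that was lost with library totals alone and on the TPM scale.

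CA9 was at 477, 479 and 523 CPM in the replicates and at 903 CPM in the single library (0.87 ± 0.07, edgeR adjusted p = 2.93e-08). NDRG1 was at 1304, 1245 and 1238 CPM against 1818 CPM (0.53), and BNIP3 at 182, 165 and 174 CPM against 258 CPM (0.57). The single library lay above all replicates for each of them. Among the collagen-modifying enzymes, the prolyl hydroxylase P4HA1 rose from 187, 181 and 184 CPM to 296 CPM (0.68) and LOX, which crosslinks collagen, from 409.5, 397 and 402 CPM to 568 CPM (0.49). LOXL2, a relative of LOX, fell instead, from 149, 158 and 149.7 CPM to 24.7 CPM (-2.62 ± 0.09, edgeR adjusted p = 8.10e-13). TFRC, the transferrin receptor for iron uptake, fell from 1079.6, 1079.9 and 1023 CPM to 327 CPM (-1.70). ANGPTL4, an inhibitor of lipoprotein lipase, and PLOD2, a collagen lysyl hydroxylase, did not pass the test (-0.12 and -0.10).

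The core letters of the HIF response element, ACGTG, were searched on both strands in RefSeq promoter windows of GRCh38.p14, each 300 bases long and reaching from 250 bases before a gene's start to 50 after it. They were found in 20 of 37 windows of HIF targets outside glycolysis (54.1%), in 9 of 22 of the glycolysis list (40.9%), in 26.0% of the windows of all genes tested and in 21.6% of all 27305 windows. Windows of 3 targets are printed, CA9 and P4HA1 because they were higher and TFRC because it was lower in the single library, with the core in capitals as it reads on the gene's own strand (ACGTG, or CACGT for the other strand). They lie at chr9:35673678-35673977 (plus strand), chr10:73096817-73097116 (minus strand) and chr3:196082041-196082340 (minus strand), around the start of each gene.
CA9: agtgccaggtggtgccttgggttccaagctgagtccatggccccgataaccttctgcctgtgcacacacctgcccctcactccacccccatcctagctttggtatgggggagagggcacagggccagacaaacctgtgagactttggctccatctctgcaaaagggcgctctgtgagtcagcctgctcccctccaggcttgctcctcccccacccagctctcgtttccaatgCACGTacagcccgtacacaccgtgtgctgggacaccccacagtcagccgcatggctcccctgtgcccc
P4HA1: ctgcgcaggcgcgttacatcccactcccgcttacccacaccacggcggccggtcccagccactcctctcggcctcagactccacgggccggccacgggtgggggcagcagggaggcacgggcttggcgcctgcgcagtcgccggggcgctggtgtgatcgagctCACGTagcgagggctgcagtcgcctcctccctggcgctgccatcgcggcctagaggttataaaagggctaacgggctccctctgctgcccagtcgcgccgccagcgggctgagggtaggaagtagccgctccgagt
TFRC: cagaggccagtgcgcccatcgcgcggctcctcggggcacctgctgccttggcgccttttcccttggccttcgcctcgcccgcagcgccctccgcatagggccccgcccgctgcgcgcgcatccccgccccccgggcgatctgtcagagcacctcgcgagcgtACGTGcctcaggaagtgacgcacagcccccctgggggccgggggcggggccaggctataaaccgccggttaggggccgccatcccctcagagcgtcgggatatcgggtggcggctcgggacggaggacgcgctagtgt
The core's first base lay 18 bases before the annotated start in CA9, 86 before it in P4HA1 and 88 before it in TFRC. Its presence in these windows was fixed by the way they were chosen. A match is a description of the letters and not of binding.

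Glucose uptake and glycolysis were slightly higher in the single library relative to all genes, while the number of calls depended on the scaling. Of 23 tested genes 14 rose and 4 fell (60.9% and 17.4%, beside 24.7% and 23.8% of all genes). The median was 0.35, beside -0.02 for all genes. With library totals alone 7 rose and 6 fell, with a median of 0.15 beside -0.22 for all genes. On the TPM scale 5 rose and 3 fell, with a median of 0.14 beside -0.14. ALDOC, the aldolase of brain, was at 3.96, 2.83 and 4.05 CPM in the replicates and at 45.03 CPM in the single library (3.64 ± 0.15, edgeR adjusted p = 1.17e-11), and ALDOA, the widely expressed form, at 3802, 3641 and 3833 CPM against 6522 CPM (0.80). SLC16A1, a lactate and pyruvate transporter, rose from 22.1, 21.4 and 19.9 CPM to 61.5 CPM (1.54). SLC2A1 was at 141, 153 and 145 CPM against 198 CPM (0.43) and PGK1 at 1132, 1136 and 1193 CPM against 1478 CPM (0.36), and both calls were lost on the TPM scale. PDK1, which holds pyruvate back from mitochondrial oxidation, fell from 70.7, 72.1 and 70.6 CPM to 42.3 CPM (-0.75, edgeR adjusted p = 1.51e-06). LDHA (-0.06, edgeR adjusted p = 0.531) and PKM, the last enzyme of glycolysis (0.01), did not pass. Of the peptidylarginine deiminases, the enzymes of citrullination in the series' title, PADI2 alone could be tested, with 5, 18 and 0 counts in the replicates and 2 in the single library (edgeR adjusted p = 0.576).

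Transcripts of the hepatocyte's plasma proteins were more abundant in the single library. Of 23 tested 19 rose and 2 fell (82.6% and 8.70%, beside 24.7% and 23.8% of all genes), 13 of them by at least 2-fold upward. The median log2 difference was 1.14. Their summed level was 35244 to 37133 TPM in the replicates and 74346 TPM in the single library. ALB measured 6323, 5782 and 5935 CPM against 29695 CPM, 4.94-fold higher (2.30 ± 0.06, edgeR adjusted p = 6.44e-14). F2, the gene of prothrombin, rose from 49.1, 46.6 and 50.7 CPM to 360.4 CPM (2.88), and AHSG, the plasma glycoprotein fetuin-A, from 2348, 2207 and 2409.9 CPM to 7536 CPM (1.70). Among the apolipoproteins the log2 differences were 2.67 for APOA1, 2.30 for APOC3, 1.55 for APOB, 1.14 for APOA2 and 0.79 for APOE. SERPINA1, the antitrypsin gene, fell from 5889, 5657 and 5988 CPM to 3981 CPM (-0.55), and complement C3 fell by a smaller amount (-0.29).

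The 3 fibrinogen chains, which assemble into one plasma protein, parted. FGG, the gamma chain, had 16, 8 and 30 counts in the replicates and 981 in the single library, or 0.466, 0.216 and 0.794 CPM against 40.4 CPM (6.34 ± 0.25, edgeR adjusted p = 3.67e-12). FGA, the alpha chain, was at 34.3, 31.1 and 28.3 CPM against 66.2 CPM (1.08). FGB, the beta chain, was at 11.5, 10.7 and 10.5 CPM against 10.2 CPM and did not pass (-0.09, edgeR adjusted p = 0.645). Per length, FGG was at 0.530, 0.260 and 1.0 TPM in the replicates, below FGB at 5.41, 5.57 and 5.45 TPM, and at 43.3 TPM in the single library, above FGB at 4.62 TPM.

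Hepatocyte transcription factors gave 9 rises and 2 falls among 15 tested, with a median of 0.60. ONECUT2, a liver and biliary homeobox factor, rose from 34.4, 38.1 and 30.1 CPM to 194 CPM (2.50), and FOXA2, a pioneer factor of endoderm, from 49.1, 47.7 and 48.1 CPM to 172 CPM (1.83). NR0B2, which represses bile acid synthesis, rose from 14.5, 15.2 and 14.9 CPM to 48.7 CPM (1.71). HNF4A itself was at 231, 232 and 228 CPM against 257 CPM and did not pass (0.16, edgeR adjusted p = 0.0567), and its small difference was -0.04 with library totals alone and -0.01 on the TPM scale. PROX1, a homeobox factor of early liver, was one of those that fell (-0.27).

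Genes of the fetal liver and of hepatoma gave 8 rises and 2 falls among 16 tested, with a median of 0.79. AFP rose from 181, 176 and 176 CPM to 2611 CPM, 14.7-fold (3.88 ± 0.06, edgeR adjusted p = 9.68e-17). DLK1, a Notch-related protein of fetal hepatoblasts, rose from 21.4, 18.5 and 22.6 CPM to 592 CPM, 28.4-fold (4.83 ± 0.08, edgeR adjusted p = 1.91e-16). GPC3 rose from 469.7, 453 and 467 CPM to 1263 CPM (1.45), and the imprinted pair IGF2 and H19 by 1.21 and 1.46 on the log2 scale. The RNA-binding proteins IGF2BP1 and LIN28B and the stem cell factor SALL4, also of fetal type, did not pass (-0.12, 0.12 and 0.10), and IGF2BP3 and HMGA2 each fell by 0.26 on the log2 scale.

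Cholesterol synthesis was the list with the most uniform rise. Of 25 tested 24 rose, each by at least 2-fold (96.0%, beside 6.80% of all genes), and 0 fell, with a median log2 difference of 2.11. With library totals alone and on the TPM scale 24 were higher and 1 lower. LSS, which closes the sterol rings, measured 100.1, 101 and 109.7 CPM in the replicates and 728 CPM in the single library (2.81 ± 0.07, edgeR adjusted p = 7.13e-15). Along the pathway, SQLE, the squalene epoxidase, rose from 76.8, 77.8 and 78.2 CPM to 414 CPM (2.42) and DHCR7, the last reductase, from 157, 156 and 151 CPM to 1187 CPM (2.94). The replicates were close to each other for these genes, and the single library lay far above them. INSIG1, which retains the sterol sensor in the endoplasmic reticulum, rose by 2.53 on the log2 scale. PMVK, the second kinase of the mevalonate pathway, gave 15.3, 22.3 and 21.1 CPM against 14.6 CPM and did not pass (edgeR adjusted p = 0.0618).

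Fatty acid synthesis moved with it. Of 16 tested 15 rose and 0 fell, 11 by at least 2-fold, with a median of 1.44. FASN, the synthase itself, measured 456, 482 and 449 CPM against 3313 CPM (2.84 ± 0.06, edgeR adjusted p = 4.91e-15). ACLY and ACSS2, which supply acetyl-CoA, rose from 410.4, 425 and 419 CPM to 1253 CPM and from 27.6, 28.3 and 25.9 CPM to 125 CPM. SCD, the stearoyl desaturase, rose by 1.21 and the desaturase FADS2 by 1.62 on the log2 scale. The regulators themselves differed. SREBF2, the sterol-sensing transcription factor, rose from 375, 394 and 381 CPM to 1005 CPM (1.39), while SREBF1, its lipogenic relative, was at 200.4, 207 and 216 CPM against 187 CPM and did not pass (-0.15, edgeR adjusted p = 0.0896).

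The sterol regulatory element, searched as TCACNCCAC on both strands, was found in 1 of the 18 promoter windows of the cholesterol list (5.56%), 0 of 14 of the fatty acid list, 1 of 22 of the glycolysis list (4.55%), 1 of 37 of HIF targets outside glycolysis (2.70%) and 1.15% of all 27305 windows. The window of the cholesterol list was the one of SREBF2 at chr22:41832855-41833154 (plus strand, RefSeq, GRCh38.p14), printed with the element in capitals.
SREBF2: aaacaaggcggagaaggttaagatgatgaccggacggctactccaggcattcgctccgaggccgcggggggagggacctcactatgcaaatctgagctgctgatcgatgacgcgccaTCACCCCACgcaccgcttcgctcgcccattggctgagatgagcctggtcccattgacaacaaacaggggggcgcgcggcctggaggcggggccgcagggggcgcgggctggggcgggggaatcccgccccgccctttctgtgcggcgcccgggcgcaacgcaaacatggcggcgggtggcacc
The element began 133 bases before the annotated start of SREBF2. No match in the other windows says only that these letters are not in them.

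**Figure D3:**
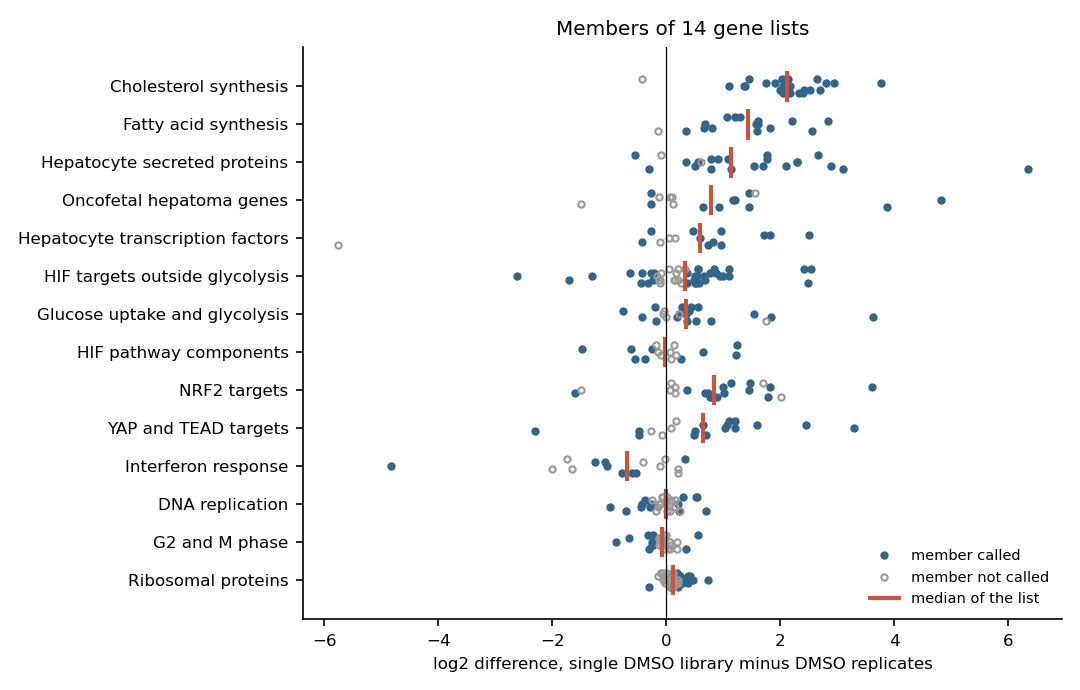
Log2 difference of the single DMSO library from the 3 DMSO replicates for each tested member of 14 gene lists. Filled points were called, open points were not, and the red bars are the medians of the lists, 2.11 for cholesterol synthesis at the top and 0.12 for ribosomal proteins at the bottom.

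Other stress and growth lists differed in direction. Of 22 targets of NRF2, the factor that answers oxidants, 14 rose and 1 fell, with a median of 0.84. These were 63.6% and 4.55% of the list, beside 24.7% and 23.8% of all genes. FTL, the light chain of the iron store ferritin, rose from 1346, 1136 and 1246 CPM to 3419 CPM (1.46), while the transporter ABCC3 fell (-1.61). The cystine transporter SLC7A11 did not pass (0.07). Of 16 heat shock genes 14 rose and 1 fell (87.5% and 6.25%, median 0.47), or 8 and 1 with library totals alone or on the TPM scale. HSPA1A and HSPA1B, near-identical copies of the inducible chaperone whose reads may be split between them, gave 9.21, 6.96 and 7.86 CPM against 47.6 CPM and 24.3, 23.1 and 22.7 CPM against 62.1 CPM. Of 19 targets of YAP and TEAD, effectors of growth control, 12 rose and 3 fell (63.2% and 15.8%, median 0.65), or 11 and 5 with library totals alone. The rises were led by the matricellular and muscle genes CCN2, from 75.9, 65.3 and 70.2 CPM to 212 CPM, and ANKRD1, from 19.5, 21.6 and 23.6 CPM to 119 CPM. The receptor kinase AXL of the same list fell (-2.29).

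Interferon response genes were called lower more often than higher. Of 16 tested 1 rose, 7 fell and 8 did not pass (median -0.69). The rise and falls were 6.25% and 43.75% of the list, beside 24.7% and 23.8% of all genes. The summed level of the list was 1273 to 1360.2 TPM in the replicates and 778 TPM in the single library. OAS1, a sensor of viral RNA, had 139, 109 and 147 counts in the replicates and 3 in the single library, a CPM ratio of 29.3 (95% counting interval 9.95 to 143) in the replicates over the single library. IRF9 and STAT2, which carry the interferon signal to the nucleus, fell from 14.5, 16.9 and 14.7 CPM to 7.33 CPM and from 45.2, 47.6 and 45.9 CPM to 26.96 CPM. Of 14 inflammatory NF-kB genes 2 rose and 6 fell (median -0.24), with ICAM1, an adhesion molecule, at -0.72 and the chemokine CCL20 at 1.30.

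Within the BMP and TGF-beta list 9 rose and 5 fell of 17 (median 0.17), or 7 and 6 with library totals alone (median -0.03, beside -0.22 for all genes). The members named here were picked after their values were seen. The 4 ID genes, BMP-induced inhibitors of differentiation, rose, with 0.86 for ID1, 0.42 for ID2, 2.05 for ID3 and 3.47 for ID4. The inhibitory SMADs fell, with -1.88 for SMAD6 and -0.95 for SMAD7, and LEFTY1, a Nodal antagonist, fell from 12.6, 13.5 and 12.5 CPM to 0.576 CPM. HAMP, the iron hormone hepcidin, rose from 2, 9 and 15 counts in the replicates to 171 in the single library (4.87, edgeR adjusted p = 8.22e-07). Of 16 iron genes 7 rose and 6 fell (43.75% and 37.5%, beside 24.7% and 23.8% of all genes), or 5 and 7 with library totals alone and 4 and 7 on the TPM scale. The ferritins FTL and FTH1 and transferrin were higher, and the uptake genes TFRC, STEAP3 and SLC11A2 and the factor IREB2 were lower. CP, the copper oxidase ceruloplasmin, fell from 899.7, 921 and 864 CPM to 400.1 CPM (-1.16).

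Amino acid and stress genes under ATF4 gave 14 rises and 4 falls among 30 tested (46.7% and 13.3%, beside 24.7% and 23.8% of all genes). The median was 0.27. With library totals alone 10 rose and 8 fell (median 0.07), and on the TPM scale 7 and 5 (median 0.09). TRIB3, a pseudokinase induced by stress, rose from 162, 166 and 186 CPM to 463 CPM (1.44), and PSAT1 and GPT2, aminotransferases, by 1.15 and 1.22 on the log2 scale. SLC7A5, a carrier of large neutral amino acids, fell from 217, 229 and 222 CPM to 71.2 CPM (-1.64). Chaperones of the endoplasmic reticulum gave 9 rises and 5 falls among 21, none by 2-fold. Their median of 0.18 became -0.02 with library totals alone and -0.01 on the TPM scale. The medians of all genes in these settings were -0.22 and -0.14, so relative to all genes the chaperones stayed slightly higher. P4HB, a disulfide isomerase, was called higher (0.71) and MANF, a factor secreted under stress, lower (-0.66). Of 30 genes of lysosomes and autophagy 19 rose and 3 fell (median 0.33), or 7 and 3 on the TPM scale, and NPC1, which exports cholesterol from lysosomes, rose from 70.5, 74.7 and 70.1 CPM to 154 CPM (1.10).

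Immediate early genes were called in both directions, 13 higher and 6 lower among 25. The AP-1 members JUND and JUNB parted, with JUND going from 138, 125 and 142 CPM to 496 CPM (1.88) and JUNB from 578, 592 and 599 CPM to 219.8 CPM (-1.42). DUSP5, a phosphatase that restrains ERK, rose from 8.68, 7.96 and 8.86 CPM to 56.1 CPM (2.72). Of 13 Wnt and beta-catenin targets 6 rose and 3 fell (median 0.46), with TBX3, a T-box repressor, at 2.47 and LGR5, a receptor of R-spondins, at -0.89. Of 8 genes that answer glucose through ChREBP and MondoA 2 rose and 2 fell (25.0% each, near the 24.7% and 23.8% of all genes). The related arrestins TXNIP and ARRDC4 were called in opposite directions (1.02 and -1.35).

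Liver metabolic enzymes were also mixed. Of 13 tested genes of bile acids, the urea cycle and amino acids 6 rose and 3 fell (median 0.56). GLUL, glutamine synthetase, rose from 234, 228 and 219 CPM to 689.7 CPM (1.60), and HAL, which degrades histidine, from 34.5, 37.8 and 39.3 CPM to 138 CPM (1.89). BAAT, which conjugates bile acids, fell from 10.6, 11.1 and 9.34 CPM to 1.69 CPM (-2.61). Of 17 xenobiotic genes 5 rose and 3 fell (29.4% and 17.6%, near the 24.7% and 23.8% of all genes), or 5 and 5 with library totals alone. The quinone reductase NQO1 was at 1.47 and TIPARP, a target of the aryl hydrocarbon receptor, at -0.90. Of the metallothioneins and their zinc partner SLC30A1, 3 could be tested, and MT2A fell from 16.1, 16.1 and 17.8 CPM to 6.09 CPM (-1.45). Of 11 cholangiocyte markers 3 rose and 4 fell (27.3% and 36.4%), with the keratins KRT19 and KRT7 in opposite directions (0.93 and -4.37).

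In the cell cycle lists no gene was called by 2-fold. Of 31 DNA replication genes 6 rose and 7 fell (19.4% and 22.6%, near the 24.7% and 23.8% of all genes), or 3 and 13 with library totals alone and 2 and 8 on the TPM scale. Of 26 G2 and M genes 2 rose and 8 fell (median -0.07), or 1 and 16 with library totals alone. CDKN1A, a cell cycle inhibitor, fell further, from 63.6, 63.3 and 67.4 CPM to 16.01 CPM (-2.02 ± 0.10, edgeR adjusted p = 1.41e-10). Of 40 ribosomal protein genes 14 rose and 1 fell (median 0.12), and the median became -0.08 with library totals alone and -0.13 on the TPM scale. Of 33 oxidative phosphorylation genes 14 rose and 1 fell (median 0.18), and the median became -0.02 under both of these settings. The medians of all genes there were -0.22 and -0.14. Relative to them oxidative phosphorylation stayed slightly higher under both, and ribosomal proteins stayed higher with library totals but lay near all genes on the TPM scale. Of 15 histone genes 3 rose and 0 fell, or 2 and 2 with library totals alone and 2 and 4 on the TPM scale, so no direction is given for them. Of 10 nuclear long noncoding RNAs 5 rose and 4 fell, or 3 and 4 with library totals alone. Of 8 RNAs without a polyA tail 4 rose and 0 fell, but 2 and 0 with DESeq2, 1 and 0 in the fit of all 9 libraries and 1 and 1 on the TPM scale. The precursor of ribosomal RNA, RNA45SN5, gave 106, 121 and 122 CPM in the replicates and 279.9 CPM in the single library (1.26).

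Most of the genes with the largest differences had few or no counts on one side. This follows in part from the way they were chosen, since a mean of 5 CPM over the 4 libraries can be reached through one side alone. CHODL, a membrane lectin-like protein, had 0, 1 and 2 counts in the replicates and 635 in the single library, a CPM ratio of 951 (95% counting interval 324 to 4625). UCA1, a long noncoding RNA named for urothelial cancer, rose from 1.17, 1.38 and 1.16 CPM to 241 CPM (7.60 ± 0.10, edgeR adjusted p = 9.60e-18), and SEMA5A, a guidance semaphorin, from 0.0583, 0.189 and 0.318 CPM to 20.2 CPM. The other large rises were MAGEA3 and MAGEA6, FGG, the brush border protease MEP1A, the activator of hepatocyte growth factor HGFAC, the steroid sulfotransferase SULT2A1 and DLK1. UCA1 and DLK1 were the ones of these 10 above 100 CPM in the single library.

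Of the large falls COL4A3, a chain of basement membrane collagen, had 330, 402 and 351 counts in the replicates and 0 in the single library, at least 80.3-fold lower when 3 counts are taken as the floor of the single library. IRF8, a transcription factor best known from myeloid cells, had 387, 320 and 371 counts against 0 (at least 80.2-fold lower), and CACNG6, a calcium channel subunit, 219, 246 and 288 against 0 (at least 55.7-fold lower). SUCNR1, the receptor for succinate, had 964, 1325 and 1104 counts against 1, a ratio of 755 (95% counting interval 135 to 29832). MDFI, an inhibitor of myogenic factors, had 343, 442 and 398 against 1, a ratio of 263 (95% counting interval 47.2 to 10407). PLXDC2, a plexin-domain membrane protein, fell from 60.5, 55.4 and 57.2 CPM to 1.15 CPM, and SH3BP5, an adaptor of JNK signalling, from 38.7, 42.5 and 40.2 CPM to 0.823 CPM. The readthrough transcript BIVM-ERCC5 shares its exons with BIVM and ERCC5 and its call was lost with limma-voom and in the fit of all 9 libraries, so it is uncertain.

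COL4A4, the partner chain of COL4A3, fell with it, from 449, 531 and 481 counts to 6 (-5.74 ± 0.31, edgeR adjusted p = 2.37e-10). The pair lies head to head on chromosome 2, COL4A3 from 227164624 to 227314792 on the plus strand and COL4A4 from 226967360 to 227164488 on the minus strand (GRCh38.p14). Their promoter windows overlap, and the COL4A3 window at chr2:227164374-227164673 is printed because both genes were lower in the single library. It reaches from inside the annotated span of COL4A4, across the gap between the genes, to the first bases of COL4A3. The 82 bases that it shares with the COL4A4 window are in capitals and lie inside the annotated span of COL4A4. The COL4A4 window, at chr2:227164156-227164455, stops short of the end of that span at 227164488. It was thus set on a start inside the span, and the shared bases depend on that start.
COL4A3: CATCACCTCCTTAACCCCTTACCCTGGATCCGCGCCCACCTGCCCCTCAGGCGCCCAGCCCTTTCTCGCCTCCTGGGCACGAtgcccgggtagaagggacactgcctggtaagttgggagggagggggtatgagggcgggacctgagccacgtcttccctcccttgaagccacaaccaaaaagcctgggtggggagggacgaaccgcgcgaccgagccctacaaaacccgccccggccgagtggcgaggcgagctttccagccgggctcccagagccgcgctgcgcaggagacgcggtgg
No count of COL4A3 appeared in the single library, where a count of 0 allows up to 0.123 CPM.

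**Figure D4:**
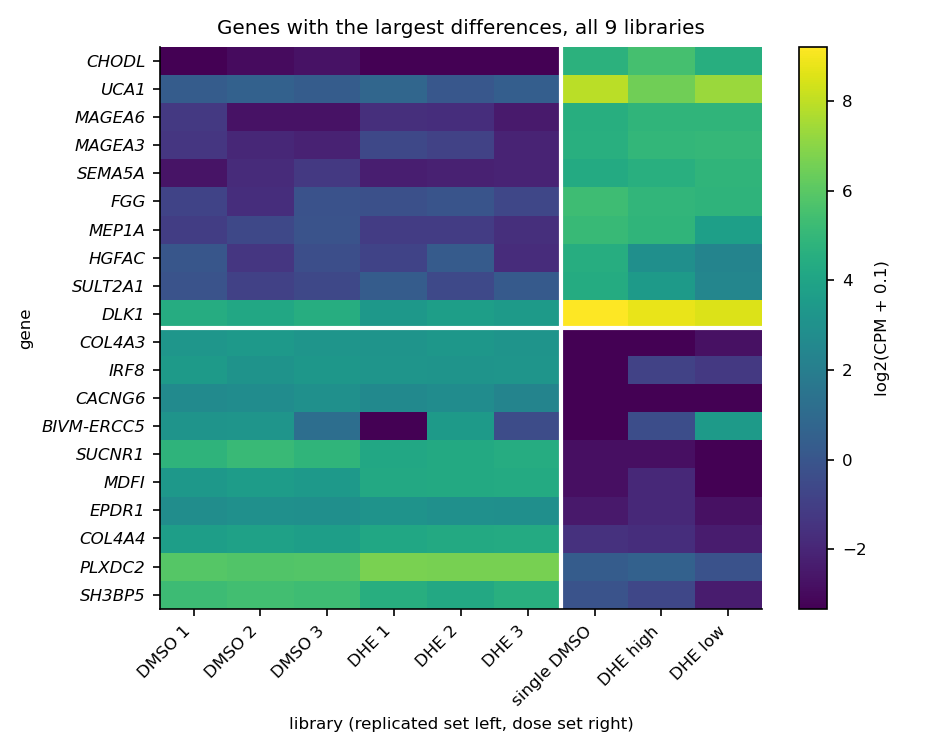
Log2(CPM + 0.1) of the 10 largest rises (top) and 10 largest falls (bottom) of the single DMSO library in all 9 libraries, chosen among called genes that average 5 CPM or more and whose single library lies outside the range of the replicates. The replicated set is left of the white line and the dose set right of it, and the DHE high and DHE low columns resemble the single DMSO column rather than the DHE replicates, with BIVM-ERCC5 the visible exception.

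The DHE libraries allow a similar comparison of sets without sharing a library. The labels give no dose for the DHE replicates, so among the DHE libraries the set cannot be told apart from the dose. DHE high against the DHE replicates gave a median absolute log2 difference of 0.32, and DHE low 0.36. Genes with a mean below 5 CPM over the 4 DMSO libraries were left out of this comparison, which kept 10957 of 15251 genes and 1117 of the 2045 called at least 2-fold in DMSO. Of these 1117 genes 1110 (99.4%) had the same sign in DHE high and 1062 (95.1%) in DHE low. They were chosen for a large DMSO difference, and the share of the same sign over all 10957 genes was not counted. Across 10957 genes, which share their libraries and depth, Pearson's r with the DMSO difference was 0.907 for DHE high and 0.797 for DHE low. CHODL, scaled over all 9 libraries, was at 45 CPM in DHE high and 23.1 in DHE low and at 0 in each DHE replicate. UCA1 was at 90.1 and 161 CPM against 1.68, 0.942 and 1.24 CPM in the DHE replicates. SUCNR1 was at 0.0419 and 0 CPM against 18.4, 19.6 and 21.5 CPM, and PLXDC2 at 1.38 and 0.782 CPM against 102, 100.4 and 101 CPM. For these 4 genes, chosen from the largest differences, the dose set stood on one side and the replicated set on the other in DMSO and DHE alike. Other rises of the single DMSO library were smaller or not seen in DHE low. AFP was at 850.1 CPM in DHE high and 322 CPM in DHE low against 156, 144 and 139.8 CPM in the DHE replicates, and ALB at 11669.8 and 5984 CPM against 5276, 4639 and 4634 CPM. GPC3 was at 704 and 452 CPM against 417, 396 and 416 CPM. In DHE low IGF2 (6231 CPM against 6801, 8061 and 8400 CPM), H19 (31.2 CPM against 34.5, 31.9 and 32.5 CPM) and FGA (24.9 CPM against 52.8, 46.2 and 50.4 CPM) lay below the DHE replicates.

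Genes that are neighbours on a chromosome also differed together. The genes were cut into 270 windows of about 40 neighbours, a choice made after values had been seen, and a window's median log2 difference was at least 0.4 in 12 windows higher and 10 lower. No replicate against the other 2 reached that size in any window, with 0.10 as its largest median. The lowest median was -0.85 on chromosome 15 from 80.7 to 89.8 Mb (GRCh38.p14), where 37 of 39 genes were lower, and the next windows toward the end of that chromosome and before it were at -0.53 and -0.51. On chromosome 14 from 23.3 to 31.9 Mb 40 of 42 genes were lower (-0.52). The highest medians were 0.79 on chromosome 17 from 81.7 to 82.9 Mb, where 38 of 39 genes were higher, and 0.76 on chromosome 4 from 0.1 to 3.2 Mb, where 37 of 39 were. FASN is one of the genes of that part of chromosome 17, and HGFAC lies in the next window of chromosome 4, from 3.3 to 20.8 Mb (0.62).

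All 22 windows had the same sign in DHE high and in DHE low against the DHE replicates. The window of chromosome 15 was at -0.74 and -0.79 there, that of chromosome 17 at 0.76 and 0.73, and the first one of chromosome 4 at 0.78 and 0.70. The 22 windows were chosen for the size of their DMSO difference. Across all 270 windows the correlation with that difference was 0.950 for DHE high and 0.883 for DHE low. With windows of 20 genes 21 were higher and 29 lower, with windows of 80 genes 3 and 5, and on the TPM scale, where the median of all genes is -0.15, 3 and 33. RNA counts alone do not show whether the number of gene copies differed, and this was not tested.

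**Figure D5:**
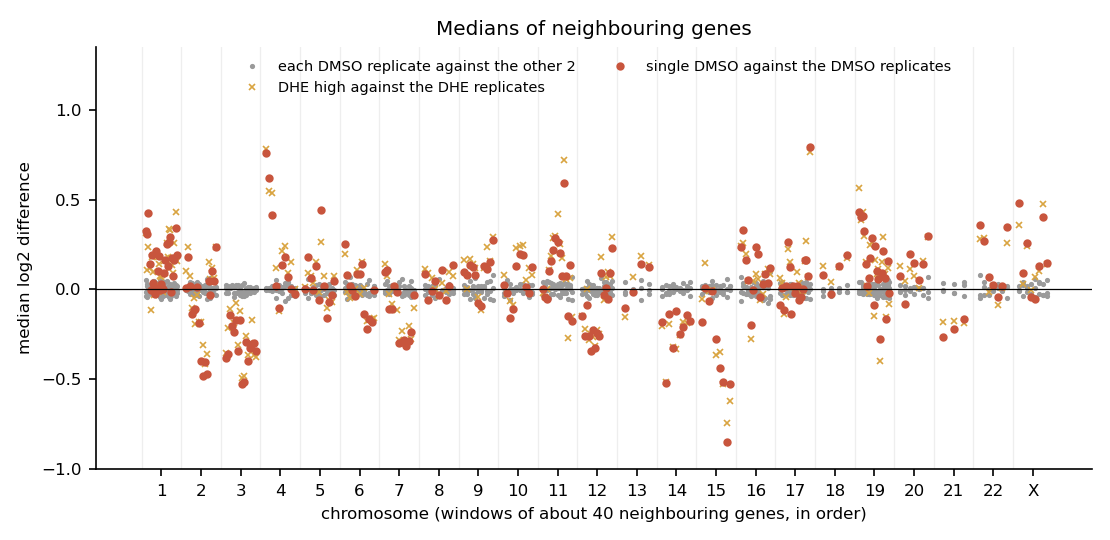
Median log2 difference in windows of about 40 neighbouring genes, in order along each chromosome. Red circles are the single DMSO library against the DMSO replicates, crosses are DHE high against the DHE replicates, and small grey points are each DMSO replicate against the other 2, none of which passes 0.10 in either direction.

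The 3 replicates themselves differed little, with a biological coefficient of variation of 7.63%. The genes of at least 20 CPM that varied most among them were near-identical copies or RNAs without a polyA tail. RGPD5, one of a family of near copies, gave 64.8, 0 and 28.3 CPM, and NOMO3, one of 3 near copies, 40.5, 105 and 82.8 CPM, values that depend on how reads were split between copies. RN7SL1 and RN7SL2, RNAs of the signal recognition particle, gave 47.4, 10.04 and 7.94 CPM and 57.2, 14.1 and 9.10 CPM, and the nuclear RNA MALAT1 144, 69.05 and 56.3 CPM. Replicate 1 was the highest for these last 3 genes and also held the most ribosomal RNA, and the single library, with 41.2, 80.9 and 180.4 CPM, was near or above replicate 1. The call of MALAT1 as higher (1.01) was lost with DESeq2 and in the fit of all 9 libraries.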

How the data were processed

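RNA was isolated with TRIzol, and polyA RNA was sequenced from NEBNext Ultra libraries, per the labels' protocols. Each library has a deposited table of RSEM gene results. The expected count of a gene is RSEM's estimated count and is not normalized, per the file headers. TPM values in the deposited tables were scaled by the authors' RSEM run for effective length and total, per the file headers. The build was GRCh38, per the submitters' processing notes, while the aligner, the tool versions and the strandedness were not given in the sources used here. Overlapping genes and near-identical copies are therefore uncertain. Genes were matched by transcript accession to RefSeq GRCh38.p14 (25649 of 26475, 96.9%) for current symbols and coordinates.

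The members, gene lists and tests were chosen with earlier results of these data known. Expected counts were rounded, genes filtered with edgeR's default rule by group (15251 tested), scaled with TMM and fitted over the 4 DMSO libraries with edgeR 4.0.16 in R 4.3.3 (two-sided quasi-likelihood F-test, Benjamini-Hochberg, threshold 0.05). The fit was also run on simulated counts in which all 4 libraries were given the same spread. That run therefore cannot test the assumption that the single library varies like the replicates. Lists, 37 in all, are described by counts and medians without a test. Ratios with 1 to 3 counts on a side carry intervals at 95%, a count of 0 was set to a floor of 3 counts, and both cover counting error only. Genes named are 17 fixed ones, the 15 of highest mean TPM (of which only those the text describes are printed), the 10 largest rises and 10 largest falls among called genes averaging 5 CPM or more with the single library outside the replicates' range, up to 4 called members of each list by smallest p, and the 5 of at least 20 CPM that varied most among the replicates; some genes that these rules chose are not reported here; other list members, added groups and windows were chosen after their values were seen. Alternatives were DESeq2 1.42.0, limma 3.58.1 (voom, and log2(TPM + 1) or log2(TPM + 0.1)), other scalings and filters, all 9 libraries in one fit, and leaving out each replicate. The plots used Python 3.11.15 and matplotlib 3.10.9.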

Additional observations from a re-analysis of the deposited data

How the results depend on the processing

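The comparison rests on 1 library on one side, depth and fragment length moved with the set, and no replicate of the single library exists among the samples described here, so calls rest on the spread of the 3 replicates. With library totals alone 2441 genes were called higher and 5460 lower, against 3773 and 3623, and 7 genes of glucose uptake and glycolysis in place of 14 were higher. With limma 1996 genes were higher on log2(TPM + 0.1) and 2076 on log2(TPM + 1), 568 of the latter by at least 2-fold in place of 1037, and 5 genes of glucose uptake and glycolysis were higher on each. These settings move the median of all genes to -0.22, -0.17 and -0.14. On TPM the mean of the 3 median absolute log2 ratios was 0.113 between replicates and 0.328 for the single library, against 0.102 and 0.409. DESeq2, voom, upper-quartile and DESeq2 scaling, other filters, the fit of all 9 libraries and leaving out each replicate kept the counts of calls within 1.5 times. Without each replicate in turn, 3686 to 3805 genes were higher and 3445 to 3662 lower. The 24 rises of cholesterol synthesis were called under each alternative run, and hepatocyte secreted proteins gave 17 to 19 rises. A count of 0 allows up to 0.123 CPM (TMM-scaled) in the single library.

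Among 2385 values of 184 named genes under alternatives 2267 kept direction and side of the threshold, 65 lost the call, 31 gained one and 22 changed sign, each of them for HNF4A, a ribosomal protein gene, PADI2 or RGPD5. With library totals alone the log2 difference was -0.041 for HNF4A, -0.074 for RPS18, -0.033 for RPL41, -0.082 for RPS16 and -0.17 for RGPD5. On both TPM scales it was -0.014 for HNF4A, -0.70 for RPS27, -0.33 for RPS28, -0.27 for RPS18, -0.23 for RPL41 and -0.24 for RPS16, and the cause was not tested. PADI2 read 0.039 with voom. RGPD5 read -0.016 with the upper quartile, -0.56 without replicate 2, -0.034 without replicate 3 and 1.16 without replicate 1, and RPLP1 0.035 without replicate 1. No paired analysis was possible because the groups compared share fewer than 2 replicate numbers.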

Other observations

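Gene families outside the fixed lists, looked at after values had been seen, split between the single DMSO library and the 3 DMSO replicates. MAGE-A genes on the X chromosome, which are silent in most adult tissues outside the testis, gave 10, 6 and 5 counts in the replicates and 587 in the single library for MAGEA3, and 7, 8 and 4 against 344 for MAGEA12. MAGEA6 had 11, 2 and 2 counts against 558, and MAGEA9 0 in each replicate against 13. MAGEA3 and MAGEA6, and MAGEA2 and MAGEA2B, are near copies whose reads may be split between them. MAGEA1, MAGEA4, MAGEA10 and MAGEA11 had no count in any of the 4 libraries. Beside COL4A3 and COL4A4, the other type IV collagen chains did not follow one direction: COL4A1, the common chain of basement membranes, had 14, 30 and 25 counts in the replicates and 75 in the single library (2.29, edgeR adjusted p = 0.00129), and COL4A6 204, 190 and 193 against 84 (-0.64, edgeR adjusted p = 0.0328), a call that was lost with DESeq2, with limma-voom, on the TPM scale and without replicate 1.

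Imprinted genes, which are read from one parental copy, moved in both directions, more of them upward. Of 13 tested on a short list the single library lay above all 3 replicates for 9 and below them for 3. The shares over all genes tested were 40.9% and 42.0%. The median log2 difference of the list was 1.17. PEG3, a zinc finger gene, rose from 37, 17 and 35 counts to 537 (4.75 ± 0.25, edgeR adjusted p = 1.84e-10), CDKN1C, a cell cycle inhibitor, from 37, 53 and 37 to 175 (2.63), and SNRPN, a splicing protein, by 1.30 on the log2 scale. MEST and GRB10 on chromosome 7 fell (-0.51 and -0.27). MEG3, the noncoding neighbour of DLK1, had 23, 23 and 18 counts in the replicates and 20 in the single library and did not pass the test (0.48, edgeR adjusted p = 0.612). Among conjugating enzymes UGT2B4, which glucuronidates bile acids, rose from 69, 85 and 77 counts to 1342 (4.70), while SULT1E1, the estrogen sulfotransferase, went from 48, 88 and 90 counts to 0, and SULT1C2 and SULT1C4 fell (-1.0 and -0.86). ZBTB16, a zinc finger transcription factor, had 2, 0 and 1 counts in the replicates and 187 in the single library, a CPM ratio of 280.1 (95% counting interval 94.4 to 1371). KCNH4, a potassium channel gene, had 170, 207 and 196 against 2, a ratio of 63.8 (95% counting interval 17.6 to 528) the other way.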
